A study of Mus musculus with 24 samples.

Results

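The circular RNAs described here come from 4 genes that are best known from macrophages and lymphoid cells, Adgre1, F13a1, Ikzf1 and Aff3, and were measured in RNA of mouse cardiac fibroblast preparations. A circle was included when the gene on its strand had exon edges, in the mm10 annotation, at both ends of the back-splice junction, whatever its level. That gave 15 of the 1717 circular RNAs in the table: 6 of Adgre1, 7 of F13a1, 1 of Ikzf1 and 1 of Aff3. The question put to them was how their levels differed between operated groups and how far they followed the leukocyte content of each library.

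All mice were male, and C57BL/6J is the only genotype the labels give. Their age is given as 8 weeks at surgery and, in another label, as 8 to 10 weeks at purchase. In transverse aortic constriction (TAC) a suture tied around the aortic arch narrows it and loads the left ventricle with pressure, and sham libraries served as controls. The groups were 4 TAC and 4 sham libraries at 1 week, 4 TAC and 5 sham libraries at 4 weeks, and 3 TAC and 4 sham libraries at 8 weeks after surgery. The labels give the cell type as cardiac fibroblast from heart, and no sort or gate that would remove leukocytes is described in them. They also leave unsaid whether each library is a separate animal, and p-values here therefore reflect library-to-library spread, part of which may be technical.

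A circular RNA forms when the end of a downstream exon is spliced back to the start of an upstream exon, and the join, the back-splice junction, is what the reads count. Circles have no free ends and outlast most linear transcripts, so a circle's level need not follow its host's messenger RNA, which this table does not measure. Adgre1 encodes an adhesion G protein-coupled receptor that is the standard surface marker of mouse macrophages. F13a1 encodes the A subunit of coagulation factor XIII, a transglutaminase made by monocytes, tissue macrophages and megakaryocytes. Ikzf1 encodes Ikaros, a zinc finger transcription factor needed for lymphocyte development and present in most leukocytes. Aff3 encodes a nuclear protein of the AF4/FMR2 family, known from lymphoid cells. Macrophages reside in the healthy heart, and more enter it under pressure overload.

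The back-splice junctions are what make each circle identifiable, and they are shown for the most abundant circles and for those that share an exon edge. In each sequence the lower-case bases end the circle's last exon and the capitals open its first exon, so the change of case marks the back-splice. Sequences follow the sense strand and come from the GENCODE M21 transcripts of mm10. The 3 Adgre1 circles that open with exon 6 have the same right side, as do the 2 that open with exon 11, and the exons 6 to 12 and 11 to 12 circles share their left side.
Adgre1 exons 6 to 7: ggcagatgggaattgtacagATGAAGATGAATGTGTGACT
Adgre1 exons 6 to 10: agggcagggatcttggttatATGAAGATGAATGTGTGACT
Adgre1 exons 6 to 12: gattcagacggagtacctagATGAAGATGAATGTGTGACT
Adgre1 exons 11 to 12: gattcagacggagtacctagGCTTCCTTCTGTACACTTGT
Adgre1 exons 11 to 17: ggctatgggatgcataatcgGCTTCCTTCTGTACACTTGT

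The 4 most downstream F13a1 circles all open with exon 9 and differ in the exon that closes them. A further row of the table used the same exon 9 start but closed at the end of exon 1 of Gm47675, a lincRNA downstream of F13a1 on the same strand, and so was not counted as an F13a1 circle.
F13a1 exons 9 to 11: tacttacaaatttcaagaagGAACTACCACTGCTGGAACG
F13a1 exons 9 to 12: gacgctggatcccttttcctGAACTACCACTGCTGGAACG
F13a1 exons 9 to 13: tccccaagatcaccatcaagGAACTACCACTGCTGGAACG
F13a1 exons 9 to 14: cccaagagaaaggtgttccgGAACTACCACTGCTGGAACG
F13a1 exon 9 with Gm47675 exon 1: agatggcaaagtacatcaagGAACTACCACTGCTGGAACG

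The other 3 F13a1 circles share the start of exon 5 or the end of exon 8.
F13a1 exons 5 to 6: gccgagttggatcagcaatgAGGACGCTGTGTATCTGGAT
F13a1 exons 5 to 8: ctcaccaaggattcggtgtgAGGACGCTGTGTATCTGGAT
F13a1 exons 6 to 8: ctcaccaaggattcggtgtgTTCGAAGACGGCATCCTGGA

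The only circle of Ikzf1 and the only circle of Aff3 in the table had these junctions.
Ikzf1 exons 2 to 3: gtgatcgaggcatggATAACCTGAAGACAA
Aff3 exons 3 to 5: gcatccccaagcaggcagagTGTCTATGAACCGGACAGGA

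The most abundant of the 15, Adgre1 exons 11 to 12, is short enough to show whole. It lies at chr17:57419322-57420524 on the plus strand and joins the 84 bases of exon 11 to the 178 bases of exon 12, 262 bases in all with a GC content of 50.4%. The capitals at its ends are the 20 bases on either side of the back-splice, where the last base is followed by the first.
Adgre1 exons 11 to 12, whole circle: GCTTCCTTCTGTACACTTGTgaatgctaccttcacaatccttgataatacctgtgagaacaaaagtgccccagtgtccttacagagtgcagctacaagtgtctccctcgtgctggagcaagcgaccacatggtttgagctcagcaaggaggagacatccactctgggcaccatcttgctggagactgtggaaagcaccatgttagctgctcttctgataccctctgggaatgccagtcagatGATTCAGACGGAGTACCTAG

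Coding exons alone made up 14 of the 15 circles. The Ikzf1 circle held 14 untranslated bases ahead of 160 coding bases. The spliced length was a multiple of 3 for 5 of the 15. Exon numbers count along the 23-exon Adgre1 transcript, the 15-exon F13a1 transcript, the 7-exon Ikzf1 transcript and the 23-exon Aff3 transcript that matched the junctions.

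Values below are normalized reads, the deposited junction reads after scaling by a factor for each library and with a constant offset of 0.01 removed. Each library held 3595 to 9146 junction reads, and 1 read was worth 0.642 to 1.57 normalized reads. Every circle is counted over its own junction and not along its length, so levels of different circles are levels per junction. At 4 weeks the TAC libraries held 6846 to 9146 reads and the sham libraries 3618 to 6524, and the 4 TAC libraries were the 4 deepest of the 24.

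**Figure D1:**
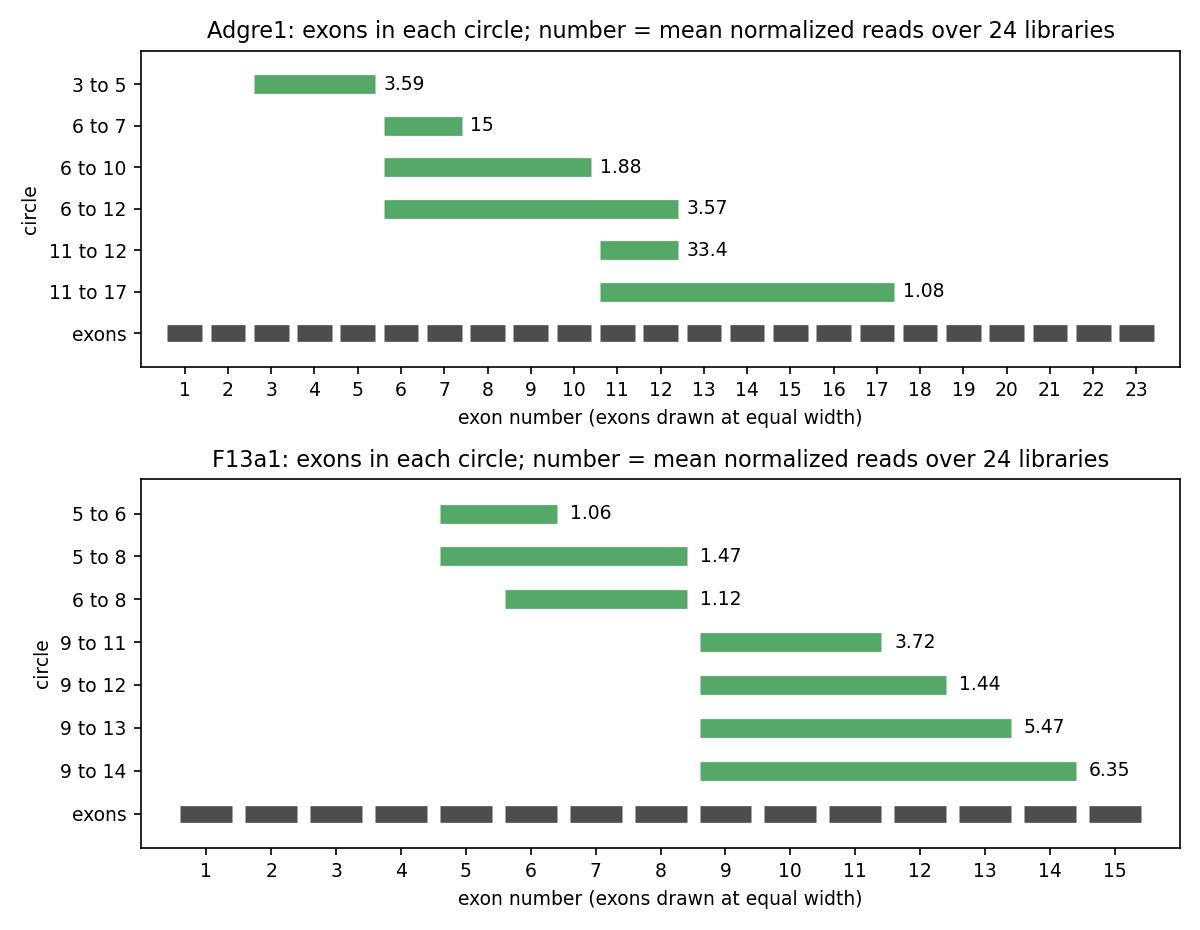
Exons joined in each Adgre1 circle (top) and F13a1 circle (bottom), with exon number on the horizontal axis, exons drawn at equal width, and the mean of normalized reads over 24 libraries beside each bar. Adgre1 exons 11 to 12 averaged 33.4 normalized reads and the next most abundant circle, Adgre1 exons 6 to 7, averaged 15.01, while 4 of the 7 F13a1 circles open with exon 9.

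Levels of the 15 circles were uneven. The leading circle, Adgre1 exons 11 to 12, averaged 33.4 normalized reads over the 24 libraries, from 777 reads in all, and ranked 6 among the 1717 circular RNAs, with a mean of 0.582% of the junction reads. Adgre1 exons 6 to 7 averaged 15.01 and ranked 45, and it lies at chr17:57406834-57408495. The circle of Ikzf1 averaged 8.47 and ranked 119, the circle of Aff3 averaged 6.53 and ranked 182, and F13a1 exons 9 to 14 averaged 6.35 and ranked 188. These circles and F13a1 exons 9 to 13, with a mean of 5.47, were the 6 members above a mean of 5. The other 9 averaged 1.06 to 3.72 normalized reads.

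Alternative use of shared exon edges was heavily weighted in Adgre1 and more even in F13a1. Adgre1 circles opening with exon 11 summed to a mean of 34.5 normalized reads, nearly all from exons 11 to 12, against 1.08 for exons 11 to 17. Circles opening with Adgre1 exon 6 summed to 20.5, with 15.01 for exons 6 to 7, 1.88 for exons 6 to 10 and 3.57 for exons 6 to 12. The 4 F13a1 circles opening with exon 9 summed to 17.0, of which 3.72 came from exons 9 to 11, 1.44 from exons 9 to 12, 5.47 from exons 9 to 13 and 6.35 from exons 9 to 14. The junction of F13a1 exon 9 with Gm47675 averaged 1.02 normalized reads, from 25 reads in 16 libraries.

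Only 5 of the 15 circles had a read in every library. The coefficient of variation over the 24 libraries was 47.8% for Adgre1 exons 11 to 12, where counting alone would give 17.7%. It was 46.4% for Adgre1 exons 6 to 7 with 26.4% from counting, 51.3% for Ikzf1 with 35.1%, and 68.5% for Aff3 with 40.0%. For F13a1 exons 9 to 14 the observed 49.9% was close to the 40.5% from counting, and for F13a1 exons 9 to 13 the observed 49.7% was close to 43.7%. The 15 circles together took between 0.600% of the junction reads, in TAC 4-week replicate 3, and 2.79%, in sham 4-week replicate 2.

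**Figure D2:**
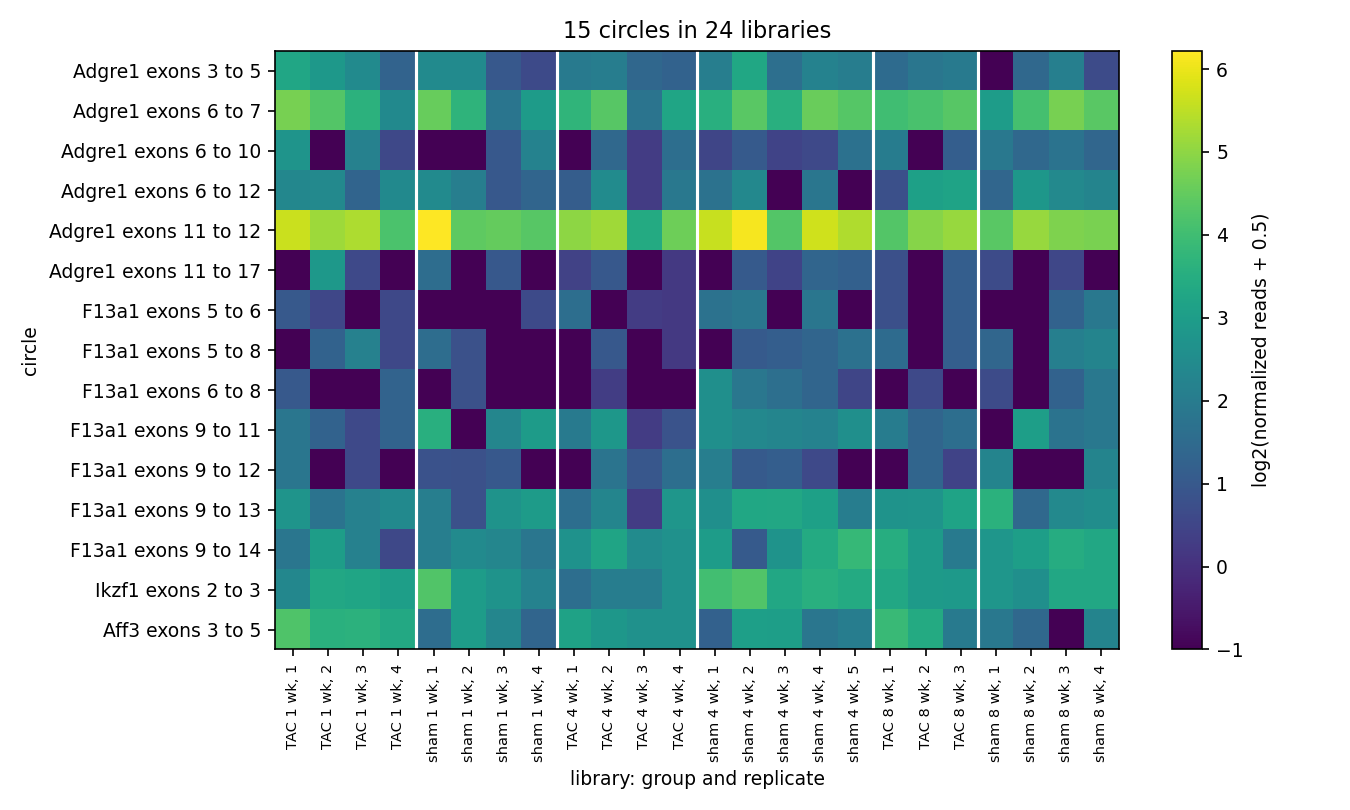
Level of each of the 15 circles (rows) in each of the 24 libraries (columns, by group and replicate), coloured by log2(normalized reads + 0.5), where the darkest colour is a library with 0 reads. The brightest row is Adgre1 exons 11 to 12, and the scarce circles Adgre1 exons 11 to 17 and F13a1 exons 5 to 6, 5 to 8 and 6 to 8 have many libraries at 0.

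TAC was compared with sham at each time by limma on log2(normalized reads + 0.5), fitted over all 1717 circular RNAs and 24 libraries, with Benjamini-Hochberg adjusted p-values and calls at 0.05. None of the 15 circles was called at 1, 4 or 8 weeks, and 1 of them, the circle of Aff3, was called higher in TAC on the average of the 3 times. Of all circular RNAs tested, 1.46% were called at 1 week, 0.116% at 4 weeks, 0% at 8 weeks and 0.641% on the average, where 0.349% were called higher. At an unadjusted p under 0.05 there were 1, 5 and 1 members at 1, 4 and 8 weeks and 2 on the average, where the whole series had 11.7%, 7.98%, 6.06% and 9.9%. The groups did not overlap for 1 member at 1 week, higher in TAC, for 2 members at 4 weeks, lower in TAC, and for 0 members at 8 weeks. The shares over all circular RNAs were 2.21% higher and 3.03% lower at 1 week, 2.33% higher and 1.22% lower at 4 weeks, and 3.09% higher and 3.03% lower at 8 weeks. A weighted limma fit to the recovered reads (limma-voom) also called 0 members at each time and 1 on the average.

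The signs of the 15 log2 fold changes differed between times. At 1 week 11 were positive and 4 negative, with a median of 0.40 against 0.04 over all circular RNAs. At 4 weeks 3 were positive and 12 negative, with a median of -0.58 against 0.12 over all. At 8 weeks 10 were positive and 5 negative, with a median of 0.04 against 0.03 over all. Several members share exons and libraries, so these counts describe the circles and carry no test.

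**Figure D3:**
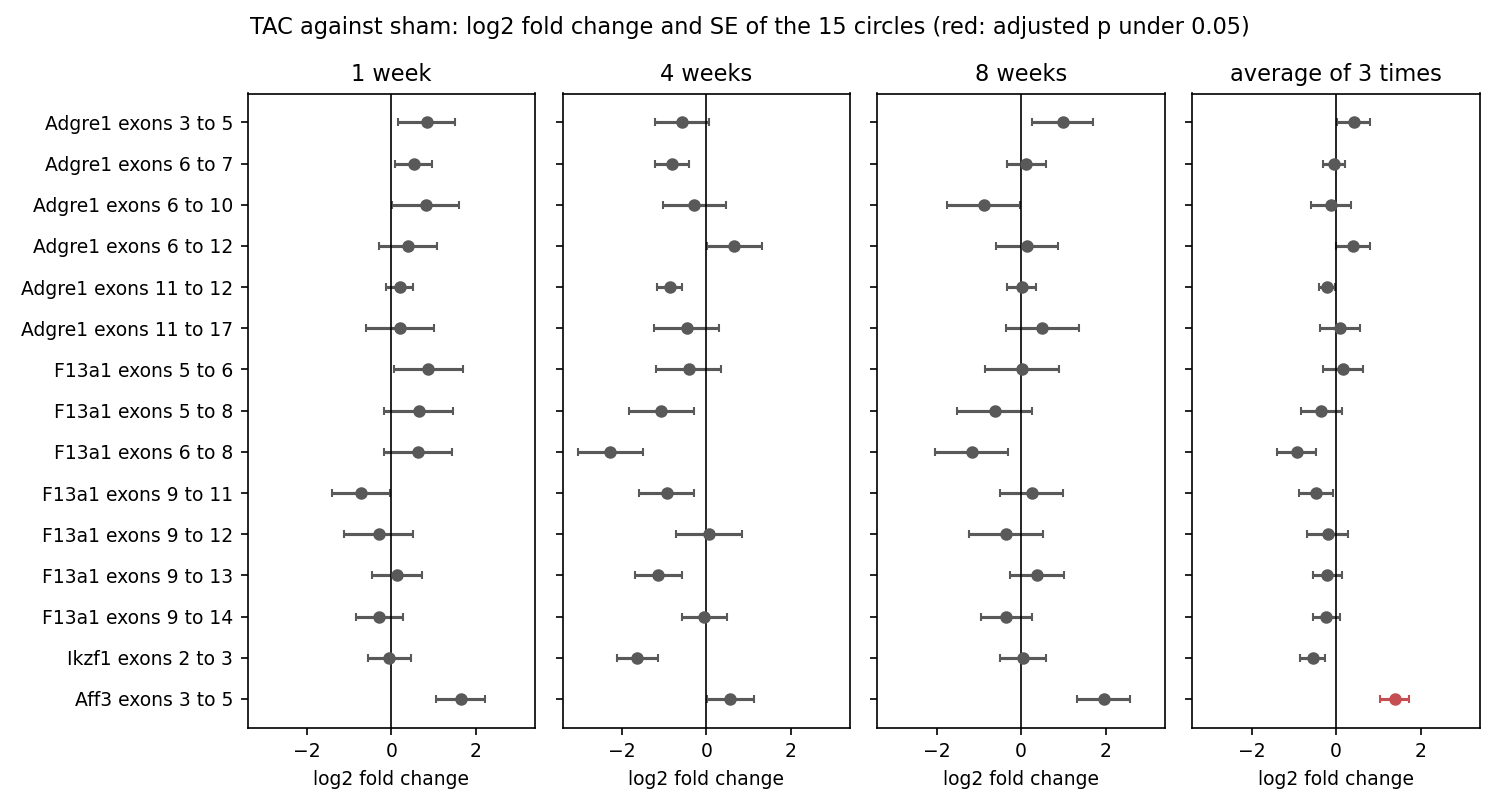
Log2 fold change of TAC over sham (points) with its standard error (bars) for the 15 circles at 1, 4 and 8 weeks and on the average of the 3 times, from limma on log2(normalized reads + 0.5). The point in red, the circle of Aff3 on the average, is the only one with an adjusted p under 0.05, and 12 of the 15 points lie below 0 at 4 weeks.

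At 1 week Adgre1 exons 11 to 12, the leading circle of the macrophage receptor gene, had 49.2, 35.5, 39.9 and 17.5 normalized reads in TAC libraries, against 74.1, 21.2, 22.5 and 19.6 in sham libraries. At 4 weeks it had 31.3, 35.9, 10.2 and 24.4 in TAC libraries, against 48.6, 69.1, 19.1, 51.9 and 40.5 in sham libraries. At 8 weeks it had 19.2, 29.6 and 34.3 in TAC libraries, against 20.2, 34.1, 27.9 and 26.5 in sham libraries. The groups overlapped at every time: at 1 week sham replicate 1 lay above all TAC libraries, and at 4 weeks sham replicate 3 lay below 3 of the 4 TAC libraries.

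The 4-week difference of Adgre1 exons 11 to 12 was -0.86 ± 0.30 (log2 fold change ± SE, 95% interval -1.45 to -0.28), with an unadjusted p of 0.00405 and an adjusted p of 0.281 (limma), and so did not pass. The corresponding values were 0.20 ± 0.32 at 1 week and 0.01 ± 0.34 at 8 weeks. Without TAC 4-week replicate 3, the library with the lowest level, the 4-week value was -0.48. Without sham 1-week replicate 1 the 1-week value was 0.65. Over 9 other settings of pseudocount, scaling, filter or model the 4-week value was -0.88 to -0.18, with adjusted p-values of 0.063 to 0.997 (limma). The TAC effect at 4 weeks minus that at 1 week was -1.06 ± 0.43 with an adjusted p of 0.56 (limma), so a difference between times was not shown. In these bulk libraries fewer cells that hold the circle and less of the circle per cell cannot be told apart. The cell type that made each circle was not identified, and both limits hold for the circles below.

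Adgre1 exons 6 to 7 had 12.7, 19.8, 2.91 and 8.99 normalized reads in TAC libraries at 4 weeks, against 11.2, 20.4, 11.3, 23.4 and 19.4 in sham libraries. The ranges overlapped, and TAC replicate 3 was again the lowest library. Its log2 fold changes were 0.53 ± 0.43 at 1 week, -0.81 ± 0.41 at 4 weeks (adjusted p = 0.621, limma) and 0.12 ± 0.47 at 8 weeks. The 4 scarcer Adgre1 circles, with means of 1.08 to 3.59, had log2 fold changes of 0.21 to 0.83 at 1 week, -0.58 to 0.67 at 4 weeks and -0.89 to 0.98 at 8 weeks. None of these passed (limma, adjusted p).

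F13a1, the factor XIII gene, showed no circle that passed in any comparison. F13a1 exons 9 to 14, at chr13:36877743-36918635 on the minus strand, had 3.08, 7.67, 3.99 and 0.973 normalized reads in TAC libraries at 1 week, against 3.77, 4.99, 4.51 and 3.10 in sham libraries. At 4 weeks it had 5.92, 8.80, 5.08 and 5.78 in TAC libraries, against 7.47, 1.57, 6.07, 10.2 and 13.8 in sham libraries. At 8 weeks it had 10.8, 7.15 and 3.43 in TAC libraries, against 6.38, 7.70, 10.6 and 9.55 in sham libraries. The groups overlapped at every time, and the log2 fold changes were -0.28 ± 0.56, -0.05 ± 0.53 and -0.35 ± 0.61 at 1, 4 and 8 weeks (limma, SE).

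F13a1 exons 6 to 8 was the F13a1 circle with the largest difference. At 4 weeks it had 0, 0.734, 0 and 0 normalized reads in TAC libraries, against 5.61, 3.14, 2.60, 2.04 and 0.921 in sham libraries, so the groups did not overlap. These were 1 read in the TAC libraries and 14 reads in the sham libraries, a ratio of 0.0642 with an exact 95% interval of 0.00152 to 0.422 that covers counting error only. The fitted log2 fold change was -2.27 ± 0.76 with an adjusted p of 0.281 (limma). At 4 weeks 2 members, this circle and that of Ikzf1, were lower in TAC with groups that did not overlap, as 1.22% of all circular RNAs were. F13a1 exons 9 to 13, at chr13:36892806-36918635, differed by -1.14 ± 0.56 at 4 weeks (adjusted p = 0.596, limma), with a mean of 3.52 ± 2.45 in TAC libraries and 7.28 ± 2.56 in sham libraries (SD, n = 4 and 5).

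**Figure D4:**
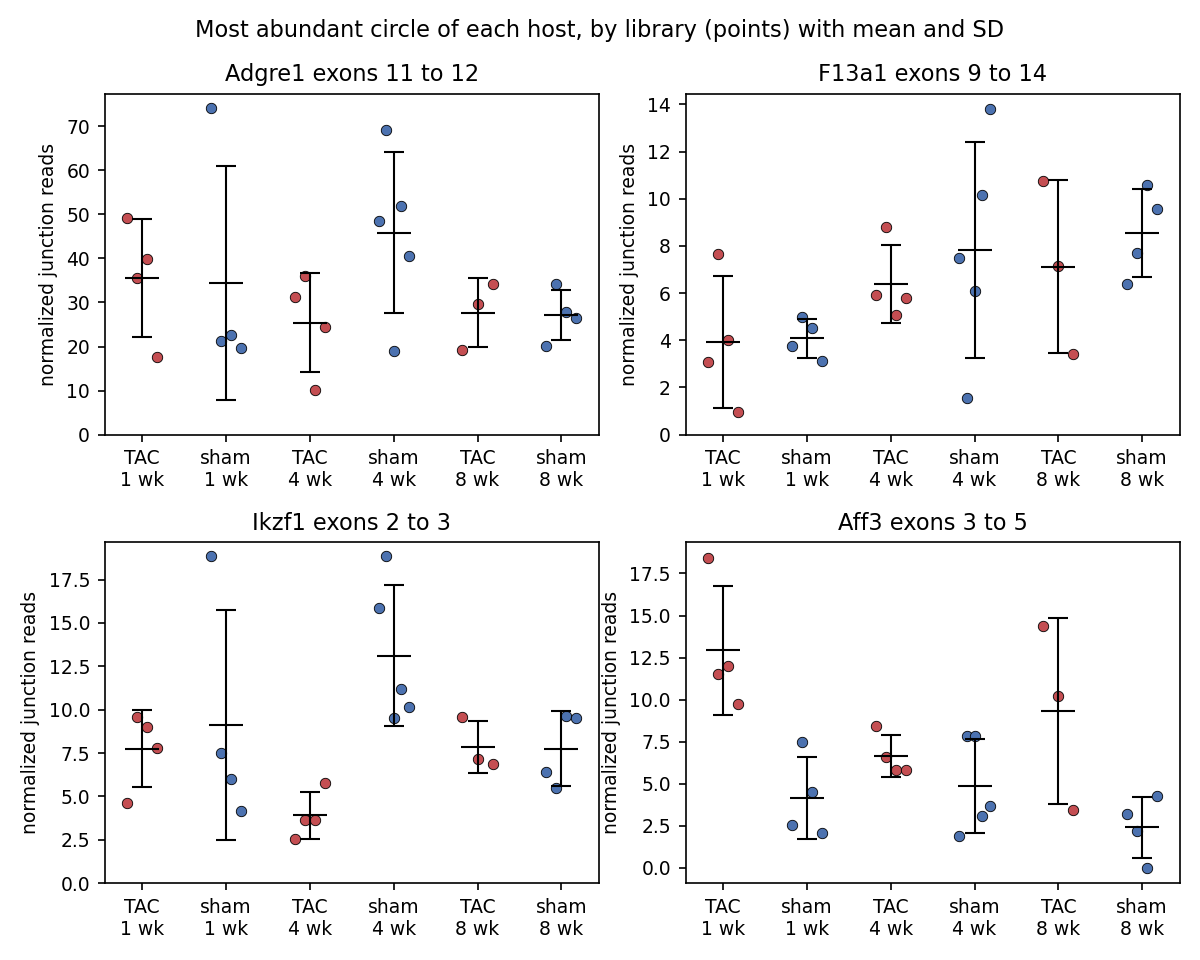
Normalized junction reads of the most abundant circle of each host in every library (points), with the mean and SD of each group (bars), TAC in red and sham in blue at 1, 4 and 8 weeks. Ikzf1 at 4 weeks and Aff3 at 1 week are the panels and times at which TAC and sham points do not overlap, with TAC below sham for Ikzf1 and above it for Aff3.

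The circle of Ikzf1, the lymphoid transcription factor, at chr11:11700205-11707904 on the plus strand, was low in TAC libraries at 4 weeks. It had 2.54, 3.67, 3.63 and 5.78 normalized reads in TAC libraries, against 15.9, 18.9, 9.55, 11.2 and 10.1 in sham libraries, from 22 and 62 reads. Every TAC library lay below every sham library, as for 1.22% of all circular RNAs. The log2 fold change was -1.63 ± 0.48 (95% interval -2.58 to -0.68), with an unadjusted p of 0.000765 and an adjusted p of 0.146 (limma), which missed the threshold.

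The call on Ikzf1 depended on what entered the fit. With the 9 libraries of 4 weeks alone the adjusted p was 0.0253, and with the 6 members and other circular RNAs above a mean of 5 normalized reads alone it was 0.0212 (both limma). Those fits called 0.815% and 1.11% of all circular RNAs tested. Leaving out each 4-week library in turn gave log2 fold changes of -1.82 to -1.47 with adjusted p-values of 0.0955 to 0.573. Over 9 other settings of pseudocount, scaling, filter or model, those fits included, it was -1.73 to -1.33. Their adjusted p-values were 0.0212 to 0.917 (limma). The summed level of circles of other leukocyte genes, described below, overlapped between the 2 groups at 4 weeks, and the TAC libraries at 4 weeks were the deeper ones. The summed level of 22 circles of cardiomyocyte genes at 4 weeks ran between 34.1 and 64.9 normalized reads in TAC and between 59.9 and 145.8 in sham. The part of these in the result was not tested.

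At 1 week the circle of Ikzf1 had 4.61, 9.59, 8.99 and 7.78 normalized reads in TAC libraries, against 18.8, 7.48, 6.01 and 4.14 in sham libraries. At 8 weeks it had 9.58, 7.15 and 6.86 in TAC libraries, against 6.38, 5.50, 9.62 and 9.55 in sham libraries. The groups overlapped at both times, and the log2 fold changes were -0.05 ± 0.51 and 0.04 ± 0.55. The TAC effect at 4 weeks minus that at 1 week was -1.58 ± 0.70 (adjusted p = 0.56), and at 8 weeks minus that at 4 weeks it was 1.67 ± 0.73 (adjusted p = 0.692, limma), so a difference between times was not shown.

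The circle of Aff3, at chr1:38534906-38536946 on the minus strand, was the member called higher in TAC on the average of the 3 times. At 1 week it had 18.5, 11.5, 11.98 and 9.73 normalized reads in TAC libraries, against 2.51, 7.48, 4.51 and 2.07 in sham libraries. At 4 weeks it had 8.45, 6.60, 5.81 and 5.78 in TAC libraries, against 1.87, 7.86, 7.81, 3.05 and 3.69 in sham libraries. At 8 weeks it had 14.4, 10.2 and 3.43 in TAC libraries, against 3.19, 2.20, 0 and 4.24 in sham libraries. At 1 week every TAC library lay above every sham library, as for 2.21% of all circular RNAs. Aff3 was the only member with this at any of the 3 times. At 4 and 8 weeks the ranges overlapped, and the 0 at 8 weeks allows up to 2.89 normalized reads in that library by counting error alone. The summed level of other leukocyte circles at 1 week ran between 28.0 and 63.1 normalized reads in TAC and between 28.6 and 57.8 in sham, so it overlapped. The cardiomyocyte sum did not overlap at 1 week, with 37.4 to 49.2 in TAC and 52.7 to 162.3 in sham, and its part in the Aff3 difference was not tested.

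Averaged over the 3 times, the log2 fold change of Aff3 was 1.39 ± 0.34 (95% interval 0.72 to 2.05) with an adjusted p of 0.00984 (limma). By time it was 1.64 ± 0.58 at 1 week (adjusted p = 0.142), 0.57 ± 0.55 at 4 weeks (adjusted p = 0.885) and 1.96 ± 0.63 at 8 weeks (adjusted p = 0.459), and none of these passed on its own. The differences between times were -1.06 ± 0.80, 0.32 ± 0.85 and 1.38 ± 0.83 for 4 minus 1, 8 minus 1 and 8 minus 4 weeks, with adjusted p-values of 0.79, 0.955 and 0.78. The call on the average was lost with a pseudocount of 0.1 (adjusted p = 0.0781), without sham 8-week replicate 3 (1.15, adjusted p = 0.0786) and without TAC 8-week replicate 1 (1.26, adjusted p = 0.093). It was also lost with a block by the number in the column name (1.08, adjusted p = 0.306), to which 6 libraries without a same-numbered partner added nothing. The call held in 22 of 24 fits that each left out 1 library.

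No member was called by limma for a difference of the TAC effect between times, and 0% of all circular RNAs were. At an unadjusted p under 0.05 there were 4, 0 and 1 members for 4 minus 1, 8 minus 1 and 8 minus 4 weeks, against 8.04%, 8.62% and 6.35% of all. Between times within TAC and within sham no member was called either, where 0.116% of all were called for sham at 8 weeks against 1 week and 0% in the other 5 comparisons. At an unadjusted p under 0.05 there were 0 members in each of the 3 TAC comparisons, against 5.13%, 7.51% and 4.14% of all for 4 against 1, 8 against 1 and 8 against 4 weeks. The sham comparisons in the same order had 2, 0 and 4 members, against 7.57%, 7.51% and 6.93% of all.

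Of the 15 circles, 12 had a negative log2 fold change at 4 weeks against 1 week in TAC, and 14 had a positive one in sham. The TAC against sham comparison at 4 weeks uses the same libraries as both. Of all circular RNAs 57.7% had a positive value in TAC and 53.5% in sham. Several members share exons and all share libraries, so these counts carry no test. Aff3 was lower in TAC at 4 weeks than in TAC at 1 week with no overlap, by -0.88 ± 0.58 (adjusted p = 0.907, limma), as 1.86% of all circular RNAs were. Ikzf1 was higher in TAC at 8 weeks than in TAC at 4 weeks with no overlap, by 0.96 ± 0.55 (adjusted p = 0.997, limma), as 3.03% were. F13a1 exons 9 to 14 was higher at 8 weeks than at 1 week in sham with no overlap, by 0.97 ± 0.56 (adjusted p = 0.712, limma), as 2.15% of all circular RNAs were.

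To set these levels against leukocyte content, the circles of other leukocyte genes in the table were summed in each library. Of 207 genes known from leukocytes, macrophages or lymphocytes, 13 had a circle in the table, the 4 hosts included, and 194 had none. Those without a circle included Ptprc, which marks all leukocytes, the macrophage genes Csf1r, Cd68, C1qa and Cx3cr1, and the lymphocyte genes Cd3e and Cd79a, so leukocyte content was seen only through genes that form circles. The sum covered 14 circles of 9 hosts. They were Mrc1, the mannose receptor of resident macrophages (mean 11.4 normalized reads, 27.7% of the sum), Mertk, a receptor for the uptake of dead cells (9.05), Dock8, an exchange factor of leukocytes (7.83), and Ets1, a transcription factor of lymphocytes and also of endothelial cells (6.56). Plcg2, Gab3, Prkcb, Lyn and Ms4a6c added 1.03 to 1.70 each.

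The leukocyte sum ran between 22.0 and 63.1 normalized reads, from 19 to 63 reads a library, with a median of 41.1. Its coefficient of variation was 27.5%, where counting alone would give 15.9%. It averaged 45.0 ± 14.5 in TAC and 41.4 ± 13.04 in sham at 1 week (SD, n = 4 and 4), 37.1 ± 7.39 in TAC and 44.6 ± 9.55 in sham at 4 weeks (n = 4 and 5), and 33.2 ± 9.49 in TAC and 42.3 ± 15.3 in sham at 8 weeks (n = 3 and 4). The ranges of TAC and sham overlapped at each time, 26.9 to 44.0 against 31.2 to 55.3 at 4 weeks. None of the 14 circles was called at any time or on the average, and 9, 5 and 8 of them had a positive log2 fold change at 1, 4 and 8 weeks.

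**Figure D5:**
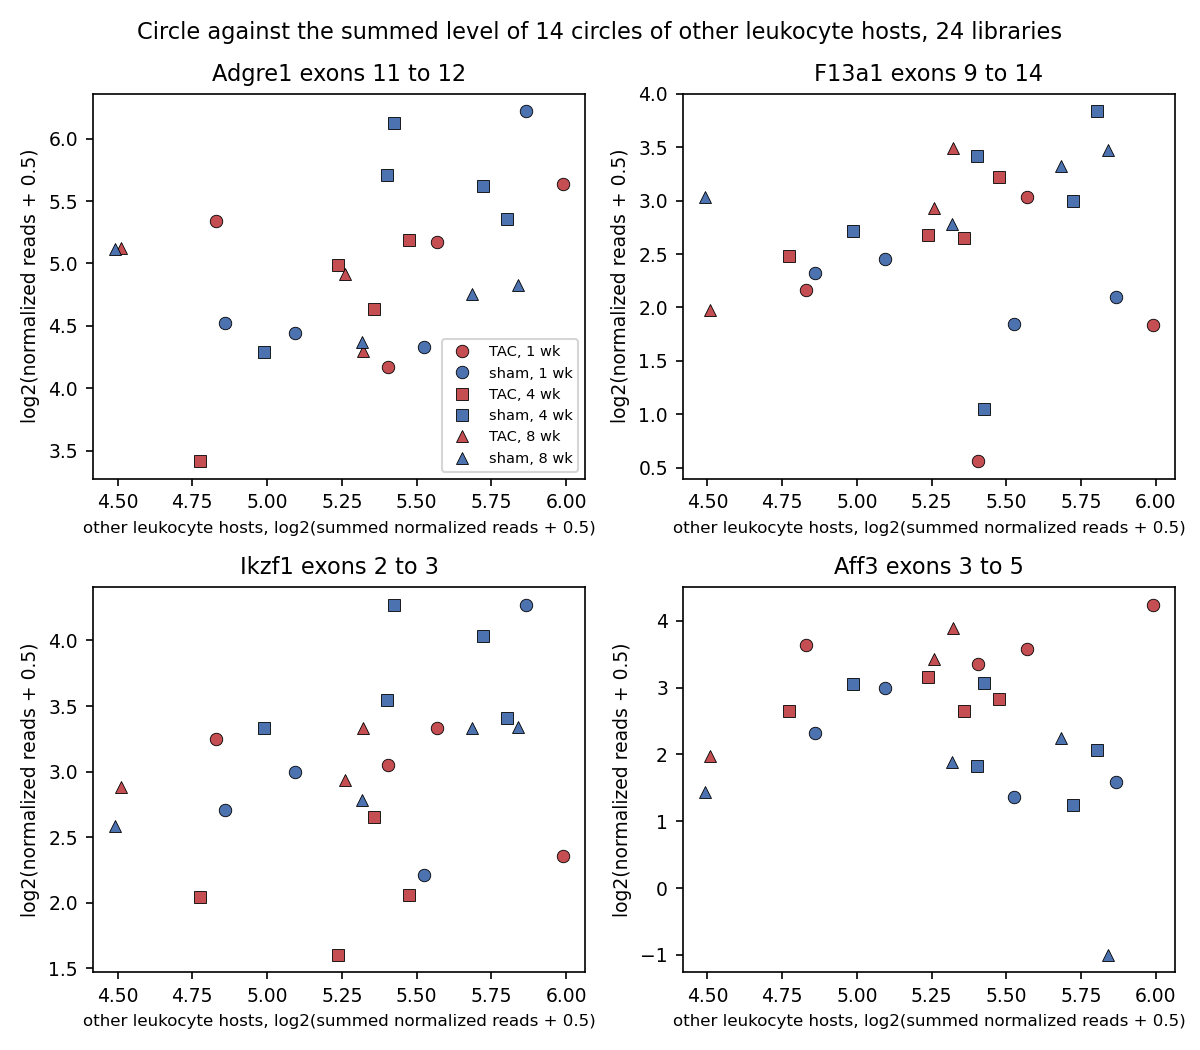
Level of the most abundant circle of each host, as log2(normalized reads + 0.5), against the summed level of 14 circles of 9 other leukocyte hosts on the same scale, 1 point per library (24), TAC in red and sham in blue, with symbols for 1, 4 and 8 weeks. Pearson's r is 0.389 for Adgre1, 0.133 for F13a1, 0.325 for Ikzf1 and -0.134 for Aff3, and the points scatter widely in every panel.

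Over the 24 libraries 14 of the 15 circles correlated positively with the leukocyte sum. The 15 values of r ran between -0.134 and 0.445, with a median of 0.21. The median r of the other circular RNAs was -0.0199. Of all circular RNAs outside the sum, the 15 members included, 47.0% had a positive r. Members and sum were scaled by the same library factor, and members of a host share exons. The circles were also set against sums for resting fibroblast, cardiomyocyte, endothelial and mural genes, the last with 1 circle, of Abcc9. In a permutation test with 100000 two-sided resamples, none of the 75 relations computed (15 circles with 5 marker sums) had an adjusted p under 0.05, and 8 had an unadjusted p under 0.05. Of those 8, Adgre1 exons 6 to 7 and F13a1 exons 6 to 8 had theirs with the leukocyte sum. With the endothelial sum r ran between -0.47 and 0.172, with -0.39 for Adgre1 exons 11 to 12. With the mural sum r ran between -0.264 and 0.379. For the leukocyte sum the smallest adjusted p was 0.382.

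Among the leading circles of the 4 hosts Adgre1 exons 11 to 12 had the highest r with the leukocyte sum, and differences between the r values were not tested. It had r = 0.389 (permutation p = 0.0594, adjusted 0.405) and rho = 0.427, and r = 0.556 without the 2 libraries farthest from the median of the sum, sham 8-week replicate 2 and TAC 8-week replicate 3. Adgre1 exons 6 to 7 had r = 0.419 (permutation p = 0.0407, adjusted 0.382), rho = 0.511, and r = 0.664 without those libraries. By time, r for Adgre1 exons 11 to 12 was 0.507 at 1 week, 0.794 at 4 weeks and -0.532 at 8 weeks, with exact permutation p-values adjusted over 12 relations of 0.349, 0.131 and 0.349 (n = 8, 9 and 7). Its relation to the sum of 20 circles of 15 resting fibroblast genes had r = 0.451 (permutation p = 0.0271, adjusted 0.382). With that fibroblast sum Adgre1 exons 6 to 7 had r = 0.498. Adgre1 exons 3 to 5 had 0.613 (adjusted permutation p = 0.116), against 0.21 with the leukocyte sum. Exons 6 to 10, 6 to 12 and 11 to 17 had -0.166, 0.169 and 0.0333. Within groups r with the fibroblast sum was 0.619 for exons 11 to 12, against 0.328 with the leukocyte sum. For exons 6 to 7 these were 0.676 and 0.487.

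The leading circles of the other hosts had lower r. The circle of Ikzf1 had r = 0.325 (permutation p = 0.121, adjusted 0.535) and rho = 0.44, and r of 0.0987, 0.474 and 0.789 at 1, 4 and 8 weeks. F13a1 exons 9 to 14 had r = 0.133, with -0.144, 0.357 and 0.705 by time, and F13a1 exons 6 to 8, a scarce circle, had r = 0.445 (permutation p = 0.0301, adjusted 0.382). The remaining F13a1 circles had r between 0.0767 (exons 9 to 12) and 0.307 (exons 5 to 6), with 0.202 for exons 9 to 13. The circle of Aff3 had r = -0.134, and -0.343 without the 2 farthest libraries, with -0.00969, -0.577 and -0.217 by time. It was the only member with a negative r. The depth of 19 to 63 reads behind the sum limits how closely any circle could follow it.

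Among the members themselves 8 relations were computed. The Adgre1 circles of exons 11 to 12 and of exons 6 to 7, which share no exon, moved together over the 24 libraries, with r = 0.712 (permutation p = 0.00013, adjusted 0.00104) and rho = 0.708. The relation held without the 2 libraries farthest from the median level of Adgre1 exons 11 to 12 (r = 0.605), TAC 4-week replicate 3 and sham 1-week replicate 1. The relation also held within groups (r = 0.77, adjusted permutation p = 0.002) and at each time (r = 0.787, 0.868 and 0.567 at 1, 4 and 8 weeks). The circle of Ikzf1 and Adgre1 exons 11 to 12 had r = 0.53 (adjusted permutation p = 0.0306), but rho = 0.44 had an adjusted permutation p of 0.133. This relation had r = 0.341 without the same 2 libraries, 0.391 within groups (adjusted permutation p = 0.44) and -0.414 at 8 weeks. The 2 F13a1 circles with the most reads, exons 9 to 14 and 9 to 13, had r = -0.12, and the other 5 relations had r between -0.291 and -0.00393.

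Circles whose levels were most like those of each leading member were picked by Pearson's r over 24 libraries among circular RNAs above a mean of 5 normalized reads. For Adgre1 exons 11 to 12 they were Nfix exon 2 (r = 0.696), Radil exons 4 to 5 (0.635) and Gpatch2l exons 4 to 8 (0.632), out of 268 compared. For F13a1 exons 9 to 14 they were circles of Atxn1 (0.657), Bcl2l13 (0.603) and Spred1 (0.53). For Ikzf1 they were a row in Rn7sk (0.602), Acaca exons 2 to 3 (0.598) and Adgre1 exons 11 to 12 (0.53). For Aff3 they were Nfkb1 exons 2 to 6 (0.737), Cacna1c exons 2 to 3 (0.652) and Txndc11 exons 2 to 4 (0.641). Of the 9 other leukocyte hosts, Mrc1, Dock8 and Mertk had a circle above that mean, and none of these was among the 12, which were the highest of many correlations and carry no test.

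Marker sums of other cell types in the same libraries ran between 28.6 and 60.3 normalized reads for resting fibroblast genes, 34.1 and 162 for cardiomyocyte genes (22 circles) and 20.1 and 59.9 for endothelial genes (15 circles). The cardiomyocyte sum averaged 44.8 ± 5.55 in TAC and 93.5 ± 49.5 in sham at 1 week (SD, n = 4 and 4), 48.9 ± 13.3 in TAC and 89.1 ± 33.8 in sham at 4 weeks (n = 4 and 5), and 74.5 ± 12.1 in TAC and 114.9 ± 29.9 in sham at 8 weeks (n = 3 and 4). Of its 22 circles, 2 were called lower in TAC at 1 week, 2 at 4 weeks, 0 at 8 weeks and 2 on the average (limma), where 0.699%, 0.116%, 0% and 0.291% of all circular RNAs were. Of the 20 resting fibroblast circles, 1 was called higher in TAC on the average, as 0.349% of all were. Over the 24 libraries r with the cardiomyocyte sum was 0.286 for Ikzf1 (permutation p = 0.176, adjusted 0.661), with rho = 0.251. For Aff3 it was -0.254 (permutation p = 0.234, adjusted 0.711), with rho = -0.325. Both signs reversed over deviations from the group means. There r was -0.0693 for Ikzf1 (permutation p = 0.854, adjusted 0.925) and 0.583 for Aff3 (permutation p = 0.00575, adjusted 0.125). Among the F13a1 circles r with the cardiomyocyte sum over the 24 libraries ran between -0.229 (exons 5 to 6) and 0.439 (exons 9 to 13, permutation p = 0.031, adjusted 0.382). F13a1 exons 9 to 12 had 0.395, and 0.563 within groups (adjusted permutation p = 0.125). Of 51 resting fibroblast genes, 15 had a circle in the table and 36 had none, Pdgfra, Col1a1 and Tcf21 among them. The labelled cell type was therefore checked only through markers that form circles.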

How the data were processed

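RNA of 24 libraries was depleted of ribosomal RNA and sequenced as stranded paired-end libraries, per the labels' protocols. FastQC, Trimmomatic, STAR and the mm10 build are named, per the submitters' processing notes. Tool versions, the caller's settings and the normalization are not given there. As deposited, the values are a signal: the authors scaled junction reads by a library factor and added 0.01. With that offset removed, 100% of values were whole multiples of a library step, within 0.001 of a read. Columns were matched to samples by description. No libraries of a group were identical; the 37 pairs within groups gave chi-square p-values of at most 0.0106.

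Junctions were matched to exon edges of GENCODE M21 (mm10). The fits (limma 3.58.1, R 4.3.3, intensity trend, 6 groups, no covariate) used log2 values with pseudocount 0.5, which shrinks the fold of scarce circles. Correlations used scipy 1.17.1. The statistics were tested on simulated data with planted changes larger than those of the members and a planted near copy of the leukocyte sum. Smaller effects were not simulated. Every circle of the 4 hosts is named. The members, lists and tests were chosen with earlier results of these data known. Same-numbered TAC and sham libraries deviated together at 1 week (r 0.15 to 0.26 over 4 pairs, 270 circular RNAs above a mean of 5), and a block by the replicate number in the sample titles changed no call of a member. Intervals of log2 fold changes come from the spread between libraries. The exact interval of a read ratio and the limit for 0 reads (3 reads) cover counting error only, since no molecular identifiers are described.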

Additional observations from a re-analysis of the deposited data

Results flagged for a closer look

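In groups of 4 or 5 libraries, 90 tests for a library far from the others (Dixon's gap test) gave 9 flags, and chance flags about 1 in 20. The group of 3 was not tested. Sham 1-week replicate 1 stood apart for Adgre1 exons 11 to 12, with 74.1 normalized reads and 22.5 in the nearest sham library, and for the 6 Adgre1 circles summed, with 109 and 42.4 in the nearest. Sham 4-week replicate 2 was high for Adgre1 exons 3 to 5, with 9.43 normalized reads. TAC 1-week replicate 3 was low for Adgre1 exons 6 to 12, with 2 normalized reads and 4.61 in the nearest TAC library. TAC 1-week replicate 2 was high for Adgre1 exons 11 to 17, with 6.71 normalized reads. The other 4 flags rest on 1 read or none: F13a1 exons 5 to 6 in sham 1-week replicate 4 (1.03 normalized reads, 0 in the others), F13a1 exons 6 to 8 in TAC 4-week replicate 2 (0.734, 0 in the others) and in sham 1-week replicate 2 (1.25, 0 in the others), and F13a1 exons 9 to 12 in sham 1-week replicate 4 (0, with 1.25 in the nearest).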

How the results depend on the processing

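No member was called at 1 or 8 weeks, or for a difference between times, under any setting tried. At 4 weeks 1 member, Ikzf1, was called among circular RNAs above a mean of 5 and among the 4-week libraries alone, against 0 otherwise; fewer features or libraries entered those fits, and over all circular RNAs they called 3 of 270 and 14 of 1717. On the average of times the Aff3 call was lost at pseudocount 0.1, leaving 0 members called, and leaving out 1 library gave 0 to 1 (Aff3 1.15 to 1.58).

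Small log2 fold changes changed sign, and the cause was not tested. Ikzf1 at 1 week was 0.05 with TMM scaling and 0.06 with limma-voom, and at 8 weeks -0.004 with TMM and -0.03 with median-of-ratios scaling. Adgre1 exons 11 to 12 at 8 weeks was -0.04 with TMM and -0.07 with median-of-ratios scaling. F13a1 exons 9 to 14 at 4 weeks was 0.06 with TMM. Leaving out 1 library gave ranges that crossed 0 for F13a1 exons 9 to 14 (-0.66 to 0.16, -0.48 to 0.21 and -0.7 to 0.06 at 1, 4 and 8 weeks), Ikzf1 (-0.33 to 0.36 at 1 week, -0.1 to 0.15 at 8 weeks) and Adgre1 exons 11 to 12 (-0.16 to 0.25 at 8 weeks).

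The correlation of F13a1 exons 9 to 14 with a sum of the lymphoid list was -0.11, and that of Aff3 with a mean of log2 values was 0.07. Leaving out 1 library gave -0.28 to 0.06 for Aff3. A sum without Ets1, chosen after seeing the data, gave r of 0.34 for Adgre1 and 0.28 for Ikzf1.

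The numbers in the titles and in the column names are the same at 1 week and for the TAC libraries. For the sham libraries they differ, or the column name has none, at 4 and 8 weeks. There, same-numbered libraries had r of -0.19 to 0.20 by title (3 of 7 pairs over 0.1, each best with its own number) and -0.18 to 0.04 by column name (0 of 5 pairs over 0.1), so neither was taken to pair them. The replicate block by title left 0 members called at each time and 1 on the average, and gave 0.21 for F13a1 exons 9 to 14 at 4 weeks. A replicate block by column number, added after seeing the data, left 0 members called at each time and 0 on the average (Aff3 1.08, adjusted p = 0.306), with Adgre1 exons 11 to 12 at 0.10 on the average; the 6 libraries without a same-numbered partner added nothing to it. The planned negative-binomial count tests were not run on the recovered reads, which limma-voom was. Depth also limits these values: 9 of the 15 circles averaged under 5 normalized reads.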
